A study of Mus musculus with 19 samples.

Results

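Foxp3 and 9 transcription factors that act with it or on its gene were followed across sorted CD4 T cells: Ikzf1, Ikzf2, Ikzf3, Ikzf4, Runx1, Runx3, Cbfb, Foxo1 and Foxo3. The set comprised every non-control probe whose gene name in the files equals one of these symbols. This gave 19 of the 55681 probes on the array, and 10 of its 34797 gene names. Messenger RNA was measured on 19 one-colour arrays of CD4 T cells from spleen and lymph nodes of adult female C57Bl/6 mice. All animals carried the genotype Tg IL-2-GFP x FOXP3mRFP, in which green fluorescence reports IL-2, the T cell growth factor, and red fluorescence reports Foxp3. The groups were 4 arrays of GFP+RFP+ cells (regulatory, IL-2 reporter on; replicates 1, 3, 4 and 5), 5 of GFP-RFP+ cells (regulatory, IL-2 reporter off), 5 of GFP+RFP- cells (conventional, IL-2 reporter on) and 5 of GFP-RFP- cells (conventional, both reporters off). The labels do not describe how either reporter was built, nor whether replicates were separate or pooled animals, so p-values cover only the spread between arrays, part of which may be technical. A cell type tag calls every sample conventional, whereas subtype labels call RFP+ cells regulatory; grouping was by the colours in the titles.

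Foxp3 is the forkhead factor that specifies regulatory T cells (Treg). It works in large complexes, with Runx1 or Runx3 bound to their shared partner Cbfb and with the Ikaros family zinc finger proteins Helios (Ikzf2) and Eos (Ikzf4). Ikaros (Ikzf1) and Aiolos (Ikzf3) are relatives from the same family that repress Il2 in T cells. Foxo1 and Foxo3 are forkhead factors that sit in the nucleus of resting T cells, are exported when Akt is active, and bind regulatory elements of the Foxp3 gene.

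Each probe is a single strand of 60 bases, and the files give its position in the mouse build mm9. Foxp3, Ikzf3 and Cbfb have 1 probe each, 5 genes have 2, and Ikzf1 and Ikzf4 have 3 each. Among 171 pairs of these probes, only 1 pair shared at least 75% of bases in any ungapped alignment on either strand, with shifts of up to 20 bases. No other probe on the array reached 75% with any of the 19. The pair joins 2 genes, as the middle Ikzf1 probe and the upstream Ikzf4 probe both lie in sequence that encodes a zinc finger common to the family. They are shown because their signals cannot be assigned to 1 gene with certainty. Capitals mark the 53 bases that are identical when the probes are aligned with an offset of 1 base.
Ikzf1 A_55_P2023612, chr11:11669493-11669552, plus strand: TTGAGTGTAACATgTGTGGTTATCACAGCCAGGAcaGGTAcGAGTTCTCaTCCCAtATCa
Ikzf4 A_55_P1979682, chr10:128071131-128071190, minus strand: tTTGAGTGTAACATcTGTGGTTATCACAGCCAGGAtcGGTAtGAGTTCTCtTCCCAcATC
The alignment covers 59 bases, 89.8% of them identical, with an unbroken run of 20 bases.

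Signal here is the scanner's processed signal in intensity units, and a probe counts as detected where the software marks it well above background. The share of all probes detected was 26.1% to 38.1% on GFP+RFP+ arrays, 22.0% to 39.4% on GFP-RFP+, 30.2% to 41.1% on GFP+RFP- and 37.8% to 44.9% on GFP-RFP- arrays. Array brightness, as the 75th percentile of signal over 6612 probes detected on all arrays, ran from 4140 to 5963 units on GFP+RFP+ arrays, 3826 to 11710 on GFP-RFP+, 7768 to 15290 on GFP+RFP- and 11640 to 17260 on GFP-RFP- arrays. Scaled levels below are log2 signal minus the log2 of that percentile. Of 8 T cell markers, 7 or 8 were detected on each GFP+RFP+ and GFP-RFP+ array, 6 to 8 on each GFP+RFP- array and 8 on each GFP-RFP- array, with summed signals of 23810 to 60900, 53440 to 124000, 91600 to 200300 and 115300 to 181500 units in that order of groups. Summed signals of the 7 B cell markers were 848 to 5819, 375.5 to 14020, 1410 to 26790 and 4636 to 21790 units in the same order. Markers within a list differed: of the B cell genes, Cd22 and Pax5 were detected on all 19 arrays, Cd79b on 14, Blnk on 10, Cd79a on 6 and Ms4a1 on 1. Of the myeloid genes, Itgam and Csf1r were detected on all 19, Cd68 on 15, Lyz2 on 14, Cd14 on 10, Adgre1 on 2 and Itgax on 0. Prf1 was detected on 19 arrays, Nkg7 on 18, Klrd1 on 12, Ncr1 on 8, Cd8a on 3 and Cd8b1 on 2. Hba-a1 was detected on 18 arrays, Hbb-b1 on 5, Ppbp on 3, Pf4 on 2 and Alas2 on 1. Summed signals, in the same order of groups, were 71600 to 108600, 62370 to 143100, 98090 to 112200 and 83970 to 117800 units for 7 myeloid markers. They were 282.8 to 8521, 1265 to 19170, 2110 to 13110 and 10120 to 28190 units for 6 markers of CD8 T and NK cells, and 1264 to 30110, 25.82 to 48330, 891.7 to 67300 and 30530 to 111700 units for 5 of erythroid cells and platelets. The part of these differences in the results below was not tested. One array stood apart: GFP-RFP+ replicate 3 had the highest brightness and the highest detected share of its group, and for Foxp3, Foxo1 and the 3 Ikaros family probes on which it stood out, values without it are also given.

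Probes of Foxp3 and its partners were detected less often on RFP+ than on RFP- arrays, as were probes over the whole array. Between 5 and 10 of the 19 probes were detected per GFP+RFP+ array, 4 to 13 per GFP-RFP+ array, 7 to 15 per GFP+RFP- array and 10 to 12 per GFP-RFP- array. Pooled over arrays, 36.8% of these probe readings were detected for GFP+RFP+ cells, 38.9% for GFP-RFP+ cells, 53.7% for GFP+RFP- cells and 55.8% for GFP-RFP- cells, beside mean shares over all probes of 32.2%, 29.6%, 36.9% and 40.6%. The count of 13 belongs to GFP-RFP+ replicate 3, and the other 4 arrays of that group had 4 to 8. By probe, 14 of 19 were detected on a smaller share of RFP+ than of RFP- arrays, 4 on a larger share and 1, Foxp3, on all. The same count was not made over all probes, so it cannot be read as particular to these genes. In bulk samples such as these, fewer cells of a type and less RNA per cell cannot be told apart. Only Foxp3 was detected on all 19 arrays. Many of the low signals given below were not above background, as the plot of signal by array marks, and have no order among themselves. A further 7 probes were detected on 10 to 18 arrays, 8 on 4 to 9, and 3 on fewer than 4: Runx1 A_51_P206585, Runx3 A_55_P2130895 and Foxo3 A_55_P2150896. The remaining 16 probes, detected on at least 4 arrays, were tested among 28101 such probes, and a probe passed (was called) at a limma adjusted p under 0.05.

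**Figure D1:**
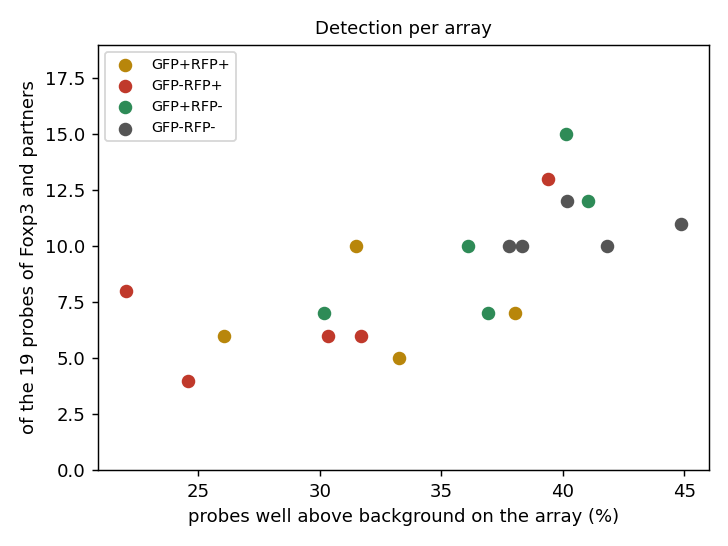
Number of the 19 probes of Foxp3 and its partners detected on each array, against the percent of all probes detected on it; each point is 1 array, coloured by group. GFP+RFP+ arrays hold 5 to 10 and GFP-RFP- arrays 10 to 12, and the lone GFP-RFP+ point at 13 is replicate 3.

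**Figure D2:**
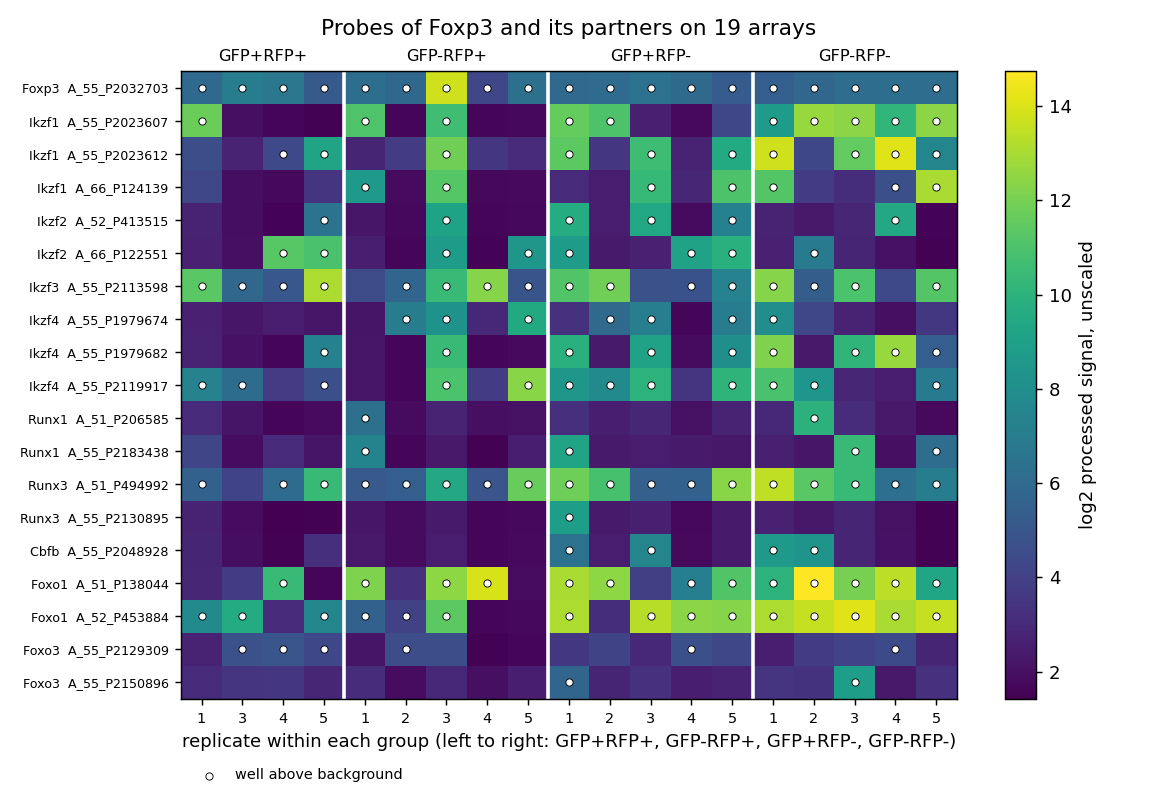
Unscaled log2 processed signal of the 19 probes (down the page) on the 19 arrays (replicates side by side within each group, GFP+RFP+ at left and GFP-RFP- at right); a white dot marks a probe well above background. Most partner probes are bright on some arrays of a group and at background on others, while Foxp3 is detected everywhere and bright on 1 array.

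Foxp3, the gene of the red reporter, was measured by 1 probe (chrX:7172301-7172360). Its signal was 62, 130, 104 and 37 units on the GFP+RFP+ arrays. On the GFP-RFP+ arrays it was 76, 61, 13968, 19 and 82 units. Conventional cells had the same low level: 64, 67, 87, 66 and 39 units on GFP+RFP- arrays, and 43, 56, 72, 76 and 72 units on GFP-RFP- arrays. Only GFP-RFP+ replicate 3 was bright, and the remaining 8 RFP+ arrays, at 19 to 130 units, overlapped the 10 RFP- arrays, at 39 to 87. Foxp3 signal therefore gave no check of the red sort, and every direction below refers to the labels. On unscaled log2 signal, the difference between GFP-RFP+ and GFP-RFP- cells was 1.36 (exact two-sided permutation test, p = 0.643, adjusted p = 0.984 over 4 comparisons, n = 5 each), and it turned to -0.26 without GFP-RFP+ replicate 3. Between GFP+RFP+ and GFP+RFP- cells it was 0.26 (exact permutation p = 0.563, adjusted p = 0.984, n = 4 and 5; smallest p possible 0.0159).

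Scaling to array brightness enlarged these differences, because RFP+ arrays were dimmer: the log2 percentile was lower by 1.19 for GFP-RFP+ than GFP-RFP- arrays, and by 1.25 for GFP+RFP+ than GFP+RFP- arrays. In the main setting these amounts enter every scaled difference between RFP+ and RFP- groups, for all genes below. Scaled Foxp3 averaged -6.13 ± 0.84 over the 4 GFP+RFP+ arrays and -5.35 ± 3.32 over the 5 GFP-RFP+ arrays, against -7.63 ± 0.61 over 5 arrays of GFP+RFP- cells and -7.89 ± 0.49 over 5 arrays of GFP-RFP- cells (SD throughout). The scaled log2 difference between the IL-2 reporter-negative groups was 2.55 ± 1.11 (SE; adjusted p = 0.198 by limma). Between the positive groups it was 1.51 ± 1.17 (adjusted p = 0.54 by limma). Averaged over both IL-2 reporter states, which is called the main effect of the Foxp3 reporter here, it was 2.03 ± 0.81 (limma, adjusted p = 0.107). Without GFP-RFP+ replicate 3 the main effect was 1.33 ± 0.42 and passed (limma, adjusted p = 0.0483), in a fit that called 13.4% of all probes. The unscaled differences behind that value were -0.26 without the IL-2 reporter and 0.26 with it. Without GFP-RFP+ replicate 4, the dimmest Foxp3 array, the main effect was 2.44 ± 0.73 (limma, adjusted p = 0.0341), and 16.2% of all probes were called.

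**Figure D3:**
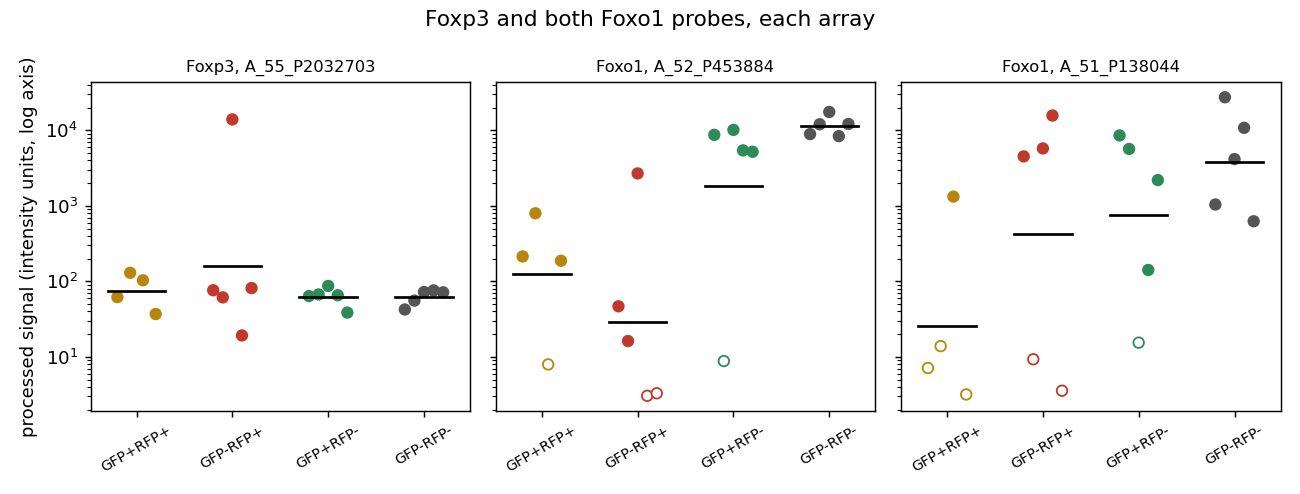
Processed signal of the Foxp3 probe and of both Foxo1 probes on every array (log axis, groups left to right from GFP+RFP+ to GFP-RFP-); filled points are well above background, open points are not, and lines are geometric means. Foxp3 is bright only on GFP-RFP+ replicate 3, at 13968 units, and the downstream Foxo1 probe (middle panel) is at 8389 to 17535 units on all GFP-RFP- arrays.

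Foxo1 was the only partner that passed the test in any comparison in the main setting; Ikzf4 and Foxo3 probes also passed in some alternative settings. Its downstream probe, A_52_P453884 (chr3:52153289-52153348), fell in RFP+ relative to RFP- cells by 5.03 ± 1.44 (SE) on the scaled log2 scale as a main effect (limma, adjusted p = 0.0348). That is 1 of 16 member probes, against 11.2% of all 28101 probes called and 4.38% called lower, so the count is near the background. An unadjusted p under 0.05 was reached by 2 of the 16, against 29.5% of all probes. The signal was 214, 799, 8 and 188 units on GFP+RFP+ arrays. It was 47, 16, 2693, 3 and 3 units on GFP-RFP+ arrays, and the 8 and both values of 3 were not above background. GFP+RFP- arrays had 8725, 9, 10153, 5438 and 5204 units, and GFP-RFP- arrays had 8941, 12049, 17535, 8389 and 12165 units. All 9 RFP+ arrays lay below 4 of the 5 GFP+RFP- arrays and below all 5 GFP-RFP- arrays, and the exception was GFP+RFP- replicate 2, which was not above background. Each of the 3 slides held all 4 groups, and within slides 1, 2 and 3 the main effect was -3.52 ± 1.09 (8 arrays), -5.48 ± 3.48 (6 arrays) and -7.45 ± 0.61 (5 arrays). These are given as values: the slides leave 4, 2 and 1 residual degrees of freedom, and groups with a lone array are assumed to vary like the others. With the share of detected probes as a covariate it was -4.36 ± 1.97 (limma, adjusted p = 0.306), in a fit that called 0.171% of all probes. The call was lost in 12 of 19 fits that left out 1 array (adjusted p of 0.0505 to 0.0788 by limma), while the difference ran from -6.03 to -4.37 over all 19. The 12 were replicates 1 and 4 of GFP+RFP+ cells, 1, 2 and 5 of GFP-RFP+ cells, 1, 3 and 5 of GFP+RFP- cells, and 1, 2, 3 and 5 of GFP-RFP- cells.

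Between cells without the IL-2 reporter, the downstream Foxo1 probe was above background on 3 GFP-RFP+ arrays and all 5 GFP-RFP- arrays, and the groups did not overlap, which held for 2.59% of all probes in this direction. The scaled difference was -7.43 ± 1.97 (limma, adjusted p = 0.064), just outside the threshold. It was -8.85 ± 1.87 without GFP-RFP+ replicate 3 (limma, adjusted p = 0.0176), the brightest of its group for this probe, in a fit that called 5.06% of all probes. Foxo1 also passed without GFP+RFP- replicate 2 (1.73% of all probes called), and in no other fit that left out 1 array. With all arrays, 0 of 16 member probes passed in this comparison, against 1.54% of all probes, and 3 had an unadjusted p under 0.05, against 21.7% of all probes. With the IL-2 reporter the difference was -2.62 ± 2.09 between GFP+RFP+ and GFP+RFP- cells (limma, adjusted p = 0.549), where 0 of 16 members passed against 0.167% of all probes and 0 had an unadjusted p under 0.05, against 16.3% of all probes. The difference between these effects was 4.80 ± 2.87 (limma, adjusted p = 1 for the interaction).

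The upstream Foxo1 probe, A_51_P138044 (chr3:52150183-52150242), lies 3106 bases from the downstream one and gave a different picture by array. It had 7, 14, 1327 and 3 units on GFP+RFP+ arrays and 4525, 9, 5768, 15728 and 4 units on GFP-RFP+ arrays, against 8567, 5672, 15, 142 and 2199 units on GFP+RFP- arrays and 1044, 27446, 4168, 10811 and 626 units on GFP-RFP- arrays. It was detected on 4 of 9 RFP+ and 9 of 10 RFP- arrays, and the groups overlapped. Its main effect was -2.80 ± 1.74 (limma, adjusted p = 0.297), in the same direction as the downstream probe but not called. The Foxo1 probes agreed on detection on 11 of 19 arrays. On GFP-RFP+ replicate 4, for example, the upstream probe was at 15728 units and the downstream one at 3.

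Foxo3, the related forkhead factor, was dim on every array by probe A_55_P2129309 (chr10:41967288-41967347). This probe had 7, 26, 30 and 20 units on GFP+RFP+ arrays, 5, 23, 25, 3 and 3 on GFP-RFP+, 12, 18, 8, 26 and 19 on GFP+RFP- and 6, 13, 17, 22 and 7 units on GFP-RFP- arrays. It was detected on 3, 1, 1 and 1 arrays in that order of groups, all of them overlapping. The main effect was 1.04 ± 0.53 (limma, adjusted p = 0.203). That is less than the brightness differences of 1.19 and 1.25 that scaling adds, so it does not show a rise in unscaled signal. The other Foxo3 probe, at chr10:41905610-41905669, was detected on 2 RFP- arrays, at 54 and 477 units.

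Of the 9 Ikaros family probes, 0 passed in any comparison in the main setting. Their main effects had scaled log2 differences between -2.77 and 2.00 and standard errors of 1.02 to 1.86. Helios (Ikzf2), the member most used as a marker of thymus-derived Treg, was detected by its upstream probe A_66_P122551 (chr1:69584008-69584067) on 2 of the 4 GFP+RFP+ arrays, 2 of the 5 GFP-RFP+ arrays, 3 of the 5 GFP+RFP- arrays and 1 of the 5 GFP-RFP- arrays. The signal was 6, 4, 2473 and 1964 units on GFP+RFP+ arrays and 6, 3, 434, 3 and 349 on GFP-RFP+ arrays. It was 448, 5, 6, 553 and 940 units on GFP+RFP- arrays and 6, 118, 7, 4 and 3 on GFP-RFP- arrays. The brightest 2 arrays were GFP+RFP+, yet 2 arrays of the same group were at background, and all groups overlapped. The main effect was 2.00 ± 1.57 (limma, adjusted p = 0.416), and the downstream Ikzf2 probe (chr1:69577853-69577912) had -0.49 ± 1.34 (limma, adjusted p = 0.843), or -1.11 ± 1.26 without GFP-RFP+ replicate 3 (limma, adjusted p = 0.578).

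Eos (Ikzf4), which joins Foxp3 in a repressor complex with Ctbp1, had 3 probes. The middle one, A_55_P2119917 (chr10:128069604-128069663), had 159, 71, 13 and 25 units on GFP+RFP+ arrays, 5, 3, 2007, 14 and 5268 on GFP-RFP+, 361, 217, 1039, 11 and 1091 on GFP+RFP- and 1943, 341, 7, 6 and 121 units on GFP-RFP- arrays. Its main effect was -0.09 ± 1.47 (limma, adjusted p = 0.973). The downstream probe A_55_P1979674 (chr10:128069521-128069580), which starts 83 bases from it, was above background on 0 of the 4 GFP+RFP+ arrays and on 3 GFP-RFP+ arrays, at 127, 291 and 729 units. With GFP+RFP+ arrays raised to their dimmest detected signal, this Ikzf4 probe was 5.3-fold lower there than in GFP-RFP+ cells. GFP-RFP+ arrays not above background kept their measured signal, so this is not a strict lower bound. The middle probe had -0.42 ± 2.14 in this comparison (limma, adjusted p = 0.986), detected on 3 of the 4 GFP+RFP+ and 2 of the 5 GFP-RFP+ arrays. The measured difference of the downstream probe, -3.27 ± 1.48 (means -9.97 and -6.70), did not pass (limma, adjusted p = 0.956). In the comparison without the IL-2 reporter it was 3.03 ± 1.40 (limma, adjusted p = 0.219), and this downstream probe passed there, as higher in GFP-RFP+ cells, with normexp background correction (2.15 ± 0.61, limma, adjusted p = 0.0245) and with the percentile over all probes (4.34 ± 1.25, limma, adjusted p = 0.0312). Ratios of the middle to the downstream Ikzf4 probe lay between 3.39 and 8.04 on the 6 arrays where both were detected.

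The Ikzf1 and Ikzf4 probes with shared sequence moved together across arrays. The Ikzf1 probe had 25, 7, 20 and 584 units on GFP+RFP+ arrays, 7, 14, 3678, 11 and 8 on GFP-RFP+, 2666, 12, 1577, 6 and 749 on GFP+RFP- and 13854, 20, 2983, 17555 and 183 units on GFP-RFP- arrays. The Ikzf4 probe had 7, 4, 3 and 154 units on GFP+RFP+, 5, 3, 1327, 3 and 3 on GFP-RFP+, 941, 5, 549, 4 and 269 on GFP+RFP- and 4549, 5, 1135, 6619 and 42 units on GFP-RFP- arrays. They agreed on detection on 18 of 19 arrays, and on the 9 arrays where both were detected the ratio of Ikzf1 to Ikzf4 signal stayed between 2.63 and 4.31, while the Ikzf1 signal spanned 6.59 on the log2 scale. The standard deviation of the log2 ratio was 0.25, against 0.47 for the middle and downstream Ikzf4 probes over 6 arrays and 3.39 for the Foxo1 pair over 10 arrays. The upstream Foxo1 and downstream Ikzf2 probes, of different genes and without a sequence match, had 0.30 over 4 arrays, with log2 signal ranges of 2.30 and 2.39. For the 2 probes with shared sequence, main effects of the Ikzf1 probe (-2.57 ± 1.61, limma, adjusted p = 0.3) and the Ikzf4 probe (-2.70 ± 1.60, limma, adjusted p = 0.271) are reported as uncertain in their gene. Without GFP-RFP+ replicate 3 they were -3.32 ± 1.51 for the Ikzf1 probe (limma, adjusted p = 0.145) and -3.45 ± 1.5 for the Ikzf4 probe (limma, adjusted p = 0.128).

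Over all genes on the array, nearby probes of 1 gene agreed more often than distant ones. Probe pairs of the same gene that were each detected on 4 to 15 arrays agreed on a median of 14 of 19 arrays when up to 200 bases apart (1455 pairs). The median was 12 when 200 to 1000 apart (1077 pairs), 12 when 1000 to 5000 apart (1049 pairs) and 11 when 5000 to 50000 apart (1034 pairs). Pairs of probes of the partners agreed on 11 to 14 arrays for Ikzf1 (distances of 3335 to 11484 bases), 13 for Ikzf2 (6155 bases) and 11 for Foxo1 (3106 bases). For Ikzf4 they agreed on 11 or 12, with 12 for the Ikzf4 probes 83 bases apart. These pairs share their arrays and are a description. The upstream Ikzf1 probe, A_55_P2023607 (chr11:11661344-11661403), was detected on 3 of 9 RFP+ and 7 of 10 RFP- arrays, all 5 GFP-RFP- arrays among them, at 428 to 6522 units. Its main effect was -2.77 ± 1.86 (limma, adjusted p = 0.334), and that of the downstream Ikzf1 probe (chr11:11672828-11672887) was -1.41 ± 1.77 (limma, adjusted p = 0.632).

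**Figure D4:**
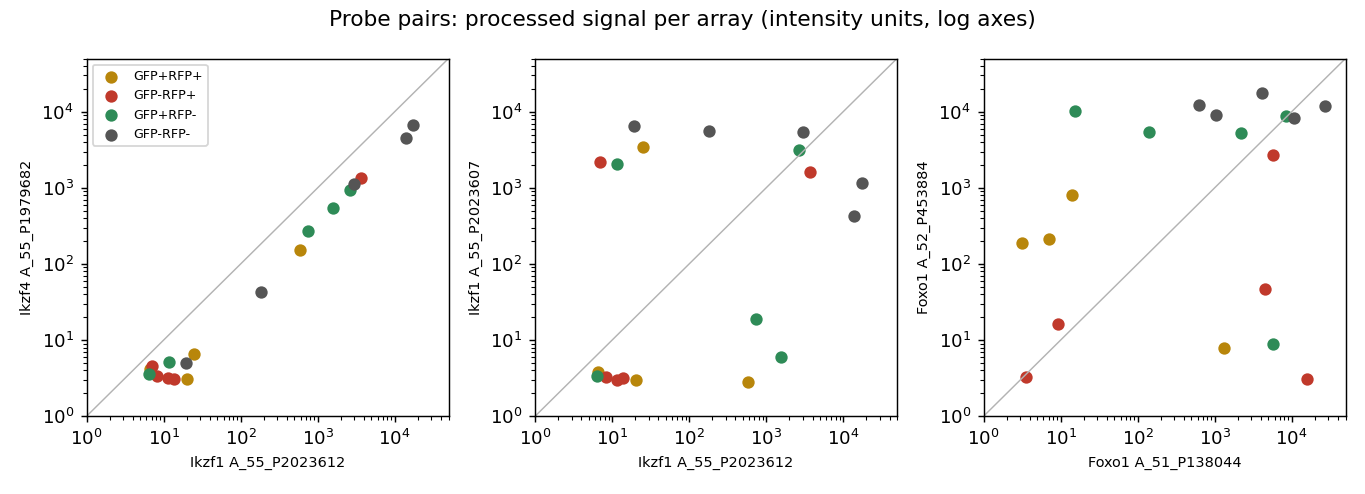
Processed signal (log axes, intensity units) of 3 probe pairs on the 19 arrays, coloured by group, with a line of equal signal. Left, the Ikzf1 and Ikzf4 probes that share 53 bases lie along a line; middle, 2 Ikzf1 probes 8149 bases apart, and right, 2 Foxo1 probes 3106 bases apart, scatter.

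Aiolos (Ikzf3), measured by 1 probe (chr11:98326176-98326235), was detected on 16 of 19 arrays. The signal was 2542, 56, 33 and 8869 units on GFP+RFP+ arrays, 22, 55, 1348, 5119 and 29 on GFP-RFP+, 2250, 3760, 26, 28 and 161 on GFP+RFP- and 5100, 41, 2029, 20 and 2332 units on GFP-RFP- arrays. Each group held arrays above 1000 units and arrays below 60, so all groups overlapped. The main effect was 1.01 ± 1.53 (limma, adjusted p = 0.699), again less than the 1.19 and 1.25 that scaling adds.

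Runx3, the Runt family member, was detected by A_51_P494992 (chr4:134731959-134732018) on 8 of 9 RFP+ and 10 of 10 RFP- arrays. The signal was 47, 17, 67 and 1407 units on GFP+RFP+ arrays and 36, 43, 702, 31 and 3215 on GFP-RFP+ arrays. It was 3521, 1895, 45, 46 and 5396 units on GFP+RFP- arrays and 11382, 2548, 1408, 77 and 134 on GFP-RFP- arrays. Medians were 46.7 units on RFP+ and 1651 units on RFP- arrays, with overlapping ranges, and the main effect was -1.31 ± 1.26 (limma, adjusted p = 0.516). Runx1 was detected on at most 4 arrays by either probe. The tested Runx1 probe (chr16:92605785-92605844) had a main effect of -0.04 ± 1.25 (limma, adjusted p = 0.988). Cbfb, the obligate partner of Runx proteins, was detected on 0 of 9 RFP+ arrays and 4 of 10 RFP- arrays, with 84 and 179 units on GFP+RFP- arrays and 388 and 318 units on GFP-RFP- arrays. The main effect of this probe (chr8:107741792-107741851) did not pass (limma, adjusted p = 0.539). No fold is given, since the fold set by the dimmest detected signals, as for Ikzf4, came to less than 1. A level near background for Runx1 and Cbfb says that these probes gave little signal here, not that the genes are silent.

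**Figure D5:**
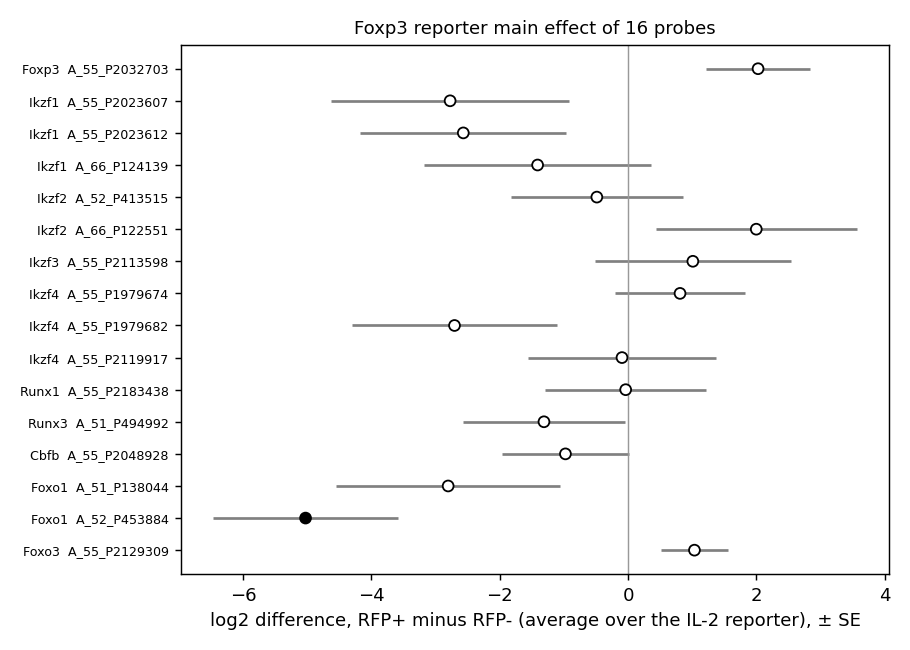
Scaled log2 difference, RFP+ minus RFP- averaged over the IL-2 reporter, with standard errors, for the 16 tested probes of Foxp3 and its partners. The filled point, Foxo1 A_52_P453884 at -5.03, passed at a limma adjusted p under 0.05; open points did not, and the Cbfb probe was not above background on any RFP+ array.

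The green reporter of IL-2 gave no called member. In GFP+RFP- against GFP-RFP- cells 0 of 16 probes passed and 0 had an unadjusted p under 0.05 (0.0142% of all probes called and 5.23% at an unadjusted p under 0.05; lowest limma adjusted p of a member 0.981). In GFP+RFP+ against GFP-RFP+ cells 0 of 16 passed and 1 had an unadjusted p under 0.05 (0.0285% of all probes called and 5.14% at an unadjusted p under 0.05; lowest adjusted p 0.956 by limma). As a main effect 0 of 16 passed, with 1 at an unadjusted p under 0.05 (0.00712% of all probes called and 5.05% at an unadjusted p under 0.05), and the same counts held for the interaction of both reporters (0.00712% and 5.02%). Foxp3 itself differed by 0.26 ± 1.11 between GFP+RFP- and GFP-RFP- cells and by -0.78 ± 1.17 between GFP+RFP+ and GFP-RFP+ cells (limma, adjusted p = 0.999 and 0.968). These 2 comparisons and those of the red reporter share their groups.

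Genes known to act with this set were described by counts of first probes (the brightest probe of each gene), beside 7.74% of 20503 genes called higher and 4.23% called lower in the main effect of the Foxp3 reporter, with a median log2 difference of -0.09 over all genes. Of 14 tested regulators of the Foxp3 locus, 0 rose and 2 fell, with a median of -1.48: Nfatc2, a calcium-activated factor (-5.68 ± 1.34, limma, adjusted p = 0.0172), and Stat5b, which carries the IL-2 signal (-3.71 ± 0.98, limma, adjusted p = 0.0266). Gata3 had -1.98 ± 0.94 (limma, adjusted p = 0.169). Of 18 cofactors of Foxp3, 1 rose and 3 fell, with a median of -1.35. Hdac9, a histone deacetylase, rose by 1.69 ± 0.38 (limma, adjusted p = 0.0142), a scaled value that includes the brightness differences of 1.19 and 1.25 between RFP- and RFP+ arrays. Hif1a, the hypoxia factor, had -4.24 ± 0.78 (limma, adjusted p = 0.00593), Stub1, a ubiquitin ligase that targets Foxp3, -6.24 ± 1.49 (adjusted p = 0.0179) and Hdac1 -3.02 ± 0.95 (adjusted p = 0.0497). Of the 5 tested paralogs 0 passed, Foxo6, Foxo4 and Ikzf5 among them, at 0.65 ± 0.37, 0.67 ± 0.60 and -0.95 ± 1.26, with a median over the 5 of 0.18.

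Of 11 tested genes that Foxp3 is known to raise, 0 rose and 1 fell in the main effect, with a median of -0.29. Icos, the costimulator, had -4.40 ± 1.27 (limma, adjusted p = 0.0363), and in 14 of 19 fits that left out 1 array 0 of the 11 were lower, while Gpr83 (2.77 ± 1.07, limma, adjusted p = 0.0969) and Ctla4 (-2.25 ± 1.44, adjusted p = 0.312) did not pass. In GFP-RFP+ against GFP-RFP- cells 1 of the 11, Gpr83, rose (limma, adjusted p = 0.0351), beside 0.376% of all genes called higher. Its probe was above background on 4 GFP-RFP+ arrays and on 0 GFP-RFP- arrays. With the GFP-RFP- arrays raised as for Ikzf4, Gpr83 was 27.9-fold higher in GFP-RFP+ cells. The GFP-RFP+ array not above background kept its measured signal, so this fold is not a strict lower bound either. Of 13 genes that Foxp3 is known to lower, 0 rose and 2 fell, with a median of -1.28. Among them was Igfbp4, a growth factor binding protein (-4.30 ± 0.85, limma, adjusted p = 0.00882). Ly6c1 had -2.92 ± 0.93 (limma, adjusted p = 0.0519). Of 13 tested genes regulated by Foxo factors, 0 rose and 2 fell, with a median of -2.14: Sesn3, a stress-response gene (-4.22 ± 0.96, limma, adjusted p = 0.0152), detected on 1 of 9 RFP+ and 10 of 10 RFP- arrays, and Pik3ip1, an inhibitor of PI3 kinase (-3.86 ± 1.08, limma, adjusted p = 0.0318). S1pr1, the exit receptor of lymphoid organs, had -3.28 ± 1.19 (limma, adjusted p = 0.0798). Medians below 0 in 5 of the 6 lists stood beside dimmer RFP+ arrays with fewer detected probes. With the share of detected probes as a covariate, 0 genes of any of the 6 lists passed, beside 0.171% of all probes called. List medians were then -0.36 for locus regulators, -1.05 for cofactors, 0.71 for paralogs, 1.49 for genes that Foxp3 raises, -1.18 for those it lowers and -0.41 for Foxo targets. The median over all probes was 0.23 in that fit, against -0.13 in the main setting. The part of detection in the list differences was not tested.

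The genes whose scaled pattern was most like Foxp3 over the 19 arrays, among 2251 named genes detected on all of them, were Zfp454 (Spearman's rho 0.90), Npy1r (0.90), Dupd1 (0.90), Cd207 (0.89) and Vgll2 (0.88). All share the array brightness term: scaled Foxp3 itself had a rho of -0.70 with the log2 75th percentile, and without scaling the rho values of the 5 genes were 0.55 to 0.76. Among 10412 genes detected on at least 4 arrays, Trpt1 (0.80), Syvn1 (0.77) and Ganc (0.76) were most like Ikzf2, and Sin3a (0.80), Dhx30 (0.78) and Sap130 (0.78) most like Ikzf4. Without scaling the rho values were 0.53 to 0.68 for Ikzf2 and 0.76 to 0.83 for Ikzf4. The Ikzf2 and Ikzf4 probes used were detected on 8 and 12 of 19 arrays, so these rho values also rank readings not above background. These are descriptions over the same 19 libraries.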

How the data were processed

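Cy3-labelled cDNA, made after amplification by a global PCR per the labels' protocols, was hybridized to 19 one-colour arrays. The scanner files deposited by the authors hold linear intensity values (processed signal), background-subtracted per the file headers with Agilent Feature Extraction 10.7.3.1, and no scaling between arrays is recorded there. The authors also deposited normalized log2 values for the series, by a method not given in the sources here, used as an alternative. Control spots and outlier flags (3296 spots) were left out and repeated spots averaged, which left 55681 probes. The main values were log2 signal minus each array's 75th percentile over 6612 probes detected on all arrays. The 28101 probes detected on at least 4 arrays entered a single limma fit of 4 groups, with Benjamini-Hochberg adjustment over all probes and a call at 0.05. Unscaled Foxp3 was compared by exact permutation. The array number limits the precision. Members, gene lists and tests were chosen with earlier results of these data known. All probes of the 10 genes are named; from each list, up to 3 genes with the smallest p and any called one; and the genes most like Foxp3, Ikzf2 and Ikzf4. Some genes that this rule or the marker lists hold are not reported here by name. Alternative settings are given in the closing section. Software was R 4.3.3, limma 3.58.1, data.table (1.17.8) and Python with pandas, numpy and matplotlib. The fit was tested on simulated data.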

Additional observations from a re-analysis of the deposited data

Results flagged for a closer look

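Dixon's test singled out 14 of 64 probe and group combinations with at least 1 detected array. The rate of about 1 in 20 that chance gives does not apply to these groups, since they were kept for holding a detected array. An array was far above the rest of its group in 13 and far below in 1. Values are scaled log2 levels. In GFP+RFP+ cells, upstream Ikzf1 probe A_55_P2023607 was at -0.26 on replicate 1, against -11.07 to -10.57 on the others. GFP-RFP+ replicate 3 stood out in 3 probes: downstream Ikzf2 (-4.36), upstream Ikzf4 (-3.14) and the middle Ikzf1 probe (-1.67), of which the last 2 share sequence. GFP-RFP+ replicate 1 stood out in both Runx1 probes, at -5.81 for A_51_P206585 and -4.73 for A_55_P2183438. In GFP+RFP- cells, replicate 1 stood out in Runx3 A_55_P2130895 (-4.98), Foxo3 A_55_P2150896 (-8.13) and Runx1 A_55_P2183438 (-4.66). The single low array was GFP+RFP- replicate 2 for the downstream Foxo1 probe, at -10.76 against -1.34 to -0.31 on the others. In GFP-RFP- cells, replicate 2 stood out in Runx1 A_51_P206585 (-4.07) and in upstream Ikzf2 (-7.20), replicate 3 in Foxo3 A_55_P2150896 (-5.13) and replicate 4 in downstream Ikzf2 (-4.27).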

How the results depend on the processing

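In the comparison without the IL-2 reporter, 0 member probes passed in the main setting (1.54% of all probes). Counts, with the share of all probes called, were 3 with normexp background correction (22.2%), 3 with the percentile over all probes (16.3%), 2 with quantile normalization (13.9%), 2 with the series table (14.2%), and 1 each with median centring (7.61%), the slide block (4.68%) and only the groups compared (1.81%); leaving out 1 array gave 0 to 1. With the IL-2 reporter the count was 1 (Foxo3) with normexp (23.5% of all probes). In the main effect 1 passed (11.2%), against 4 with normexp (37.6%; Ikzf4 A_55_P1979674 among them, 1.22, limma, adjusted p = 0.0392), 3 with the percentile over all probes (27.9%), 2 with quantile normalization (22.5%) and 2 with the series table (23.5%). The median over all probes was 0.46, 0.80, 0.12 and 0.11 in these settings, against -0.13 in the main setting. The count of members was 0 with detection on all arrays (which leaves 1 member, Foxp3), within each of the 3 slides (1 to 4 residual degrees of freedom, which show nothing on stability), with the percent detected as a covariate, and without the 3 arrays under 30% detected; leaving out 1 array gave 0 to 2. The cause of these shifts was not tested. The downstream Foxo1 main effect stayed below 0 in each setting that tested it, and was -4.82 without the 3 arrays (limma, adjusted p = 0.0865). Foxp3 was called in the main effect at 1.87 to 3.49 with normexp, the percentile over all probes, quantile normalization and the series table, settings that called 6318 to 10576 probes, 76.5% to 86.6% of them higher, against 3159 and 61.0% in the main setting. Without the IL-2 reporter, Foxp3 within slide 3 was -0.21. Unscaled Foxp3 leaving out 1 array ran from -0.26 to 2.12 without the IL-2 reporter, -0.013 to 0.59 with it, -0.13 to 0.18 for the IL-2 reporter in conventional cells (-0.045 with normexp) and -1.86 to 0.52 in Treg. Main-effect calls over all probes were 205, 0 and 0 within slides 1 to 3, 48 with the covariate, 16852 with no filter, 7850 with the percentile over all probes, 4783 with the slide block and 1639 to 4539 leaving out 1 array. The titles use the same replicate numbers across groups, and same-numbered samples were nearly uncorrelated (27 pairs, r = -0.081 to 0.096). This does not show whether they came from the same animals. With the replicate block 1 member passed in the main effect, Foxo1 at -5.37 (limma, adjusted p = 0.0293). In the comparison without the IL-2 reporter 225 probes passed with that block, against 434 without it. A scan day block, chosen after seeing the data, also gave 1. List medians stayed below 0 for the locus regulators and cofactors in 16 of 16 other settings, and for Foxo targets in 15 of 15 that tested any. The median of genes that Foxp3 raises was above 0 in 8 of 15 and ran from -0.59 to 1.49, with up to 2 called higher; that of genes it lowers was below 0 in 15 of 16. Leaving out 1 array gave 1 to 2 lower calls for locus regulators, 2 to 4 for cofactors, 0 to 1 for genes that Foxp3 raises, 1 to 3 for those it lowers and 1 to 3 for Foxo targets.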
